A study of Mus musculus with 15 samples.

Results

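Fatty acid synthesis genes were followed in polyadenylated RNA of the mouse thoracic aorta. The set held 10 genes, picked out of the table by symbol, as a list made with earlier results of these data known: Acly, Acaca, Acacb, Fasn, Me1, Scd1, Elovl5, Elovl6, Srebf1 and Mlxipl. Each had 1 row among the 37681 rows of the gene count table, and all 10 were among the 15134 genes tested. The aortas came from 15 male C57BL/6 mice, wildtype, aged 10 to 12 weeks and fed regular chow. A group of 5 received celecoxib at 30 mg/kg, another 5 received rofecoxib at 10 mg/kg, and the last 5 received the vehicle PEG-400. Each gavage was 100 µL, and the aorta was taken 6 h later at ZT11, near the end of the light phase. Both compounds are selective inhibitors of cyclooxygenase-2, and celecoxib carries a sulfonamide where rofecoxib carries a methylsulfone. Their doses differed, so values of the compounds are set side by side. Each animal gave 1 library of a whole vessel segment. Whether the surrounding fat had been stripped is not given in the sources used here.

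De novo fatty acid synthesis builds long-chain fatty acids from acetyl-CoA. Citrate exported from mitochondria is cleaved to acetyl-CoA, acetyl-CoA is carboxylated to malonyl-CoA, and fatty acid synthase joins these units with NADPH as the reductant. Elongases and desaturases then lengthen the product and add double bonds, and the transcription factors SREBP-1 and ChREBP raise transcription of the genes in response to insulin and to glucose metabolites. The pathway is most active in liver and fat, and the thoracic aorta of the mouse lies in perivascular fat that resembles brown fat.

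Deposited totals lay between 30937046 and 30967115 counts per library. The smallest deposited count of any of the 10 genes in any library was 206. The totals were nearly equal and the depth behind them is unknown, so no counting error is given. Summed over 6 smooth muscle markers, libraries held 43116 to 46062 CPM (read counts relative to the scaled library size) with celecoxib, 41915 to 51562 with rofecoxib and 35620 to 49501 with vehicle. The sum over 6 sympathetic neuron markers ranged from 0.678 to 534 CPM with celecoxib, 1.73 to 343 with rofecoxib and 2.31 to 223 with vehicle. Fat cell markers were present in every library and are given with the results they moved with.

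On a scale divided by exon length, Scd1 was by far the most abundant of the 10 transcripts in each group. It encodes the desaturase that makes oleate and palmitoleate. Its level was 215 CPM per kb with celecoxib, 185 with rofecoxib and 290 with vehicle. Fasn followed in vehicle aortas at 57.2 CPM per kb, against 29.0 with celecoxib and 29.0 with rofecoxib. Acly, Me1, Srebf1 and Elovl5 formed a middle tier of 19.7 to 29.7 CPM per kb with celecoxib, 22.04 to 30.02 with rofecoxib and 23.99 to 35.12 with vehicle. Acacb, Mlxipl, Acaca and Elovl6 were the scarcest, at 2.67 to 7.004 CPM per kb with celecoxib, 2.79 to 8.09 with rofecoxib and 6.11 to 12.9 with vehicle. Within a tier the spreads of neighbouring genes met: in vehicle Acacb had 12.9 ± 5.15 CPM per kb and Mlxipl 9.82 ± 3.30 (SD, n = 5). Fasn with 57.2 ± 27.4 and Acly with 35.1 ± 11.1 CPM per kb in vehicle also overlapped.

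The comparisons against vehicle asked what each inhibitor did to these transcripts. All 10 genes had a negative log2 fold change with celecoxib, and all 10 had one with rofecoxib, but none passed the threshold. Their median log2 fold change was -0.50 with celecoxib and -0.62 with rofecoxib, beside a median of 0.0051 and -0.00067 over all genes tested. The largest differences from vehicle were those of Elovl6, Fasn, Acacb and Mlxipl, and the smallest those of Me1 and Elovl5. With the quasi-likelihood test of edgeR, corrected over all genes after Benjamini and Hochberg, 0 of the 10 were called with celecoxib, where 0% of all genes were called, and the smallest adjusted p of the 10 was 0.283. With rofecoxib 0 of the 10 were called, where 0% of all genes were called, and the smallest adjusted p of the 10 was 0.896.

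At an unadjusted p under 0.05, 7 of the 10 were lower with celecoxib, where 7.18% of all genes tested were. With rofecoxib 4 of the 10 were lower, where 3.71% of all genes were. These counts rested on single libraries: leaving out each library in turn, they ranged from 2 to 8 with celecoxib and from 0 to 6 with rofecoxib. The celecoxib count was 2 without vehicle 5 and 3 without vehicle 4, celecoxib 2, celecoxib 3 or celecoxib 5. The rofecoxib count was 0 without vehicle 4, vehicle 5, rofecoxib 3, rofecoxib 4 or rofecoxib 5, and 2 without rofecoxib 2. The signs held: all 10 stayed negative against vehicle for both compounds with any library left out. Both comparisons use the same 5 vehicle libraries, so their resemblance is no independent repeat. Celecoxib libraries lay entirely below the vehicle libraries for 0 of the 10 genes, where they did for 0.74% of all genes. Rofecoxib libraries did so for 0 of the 10, where they did for 0.72% of all genes.

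**Figure D1:**
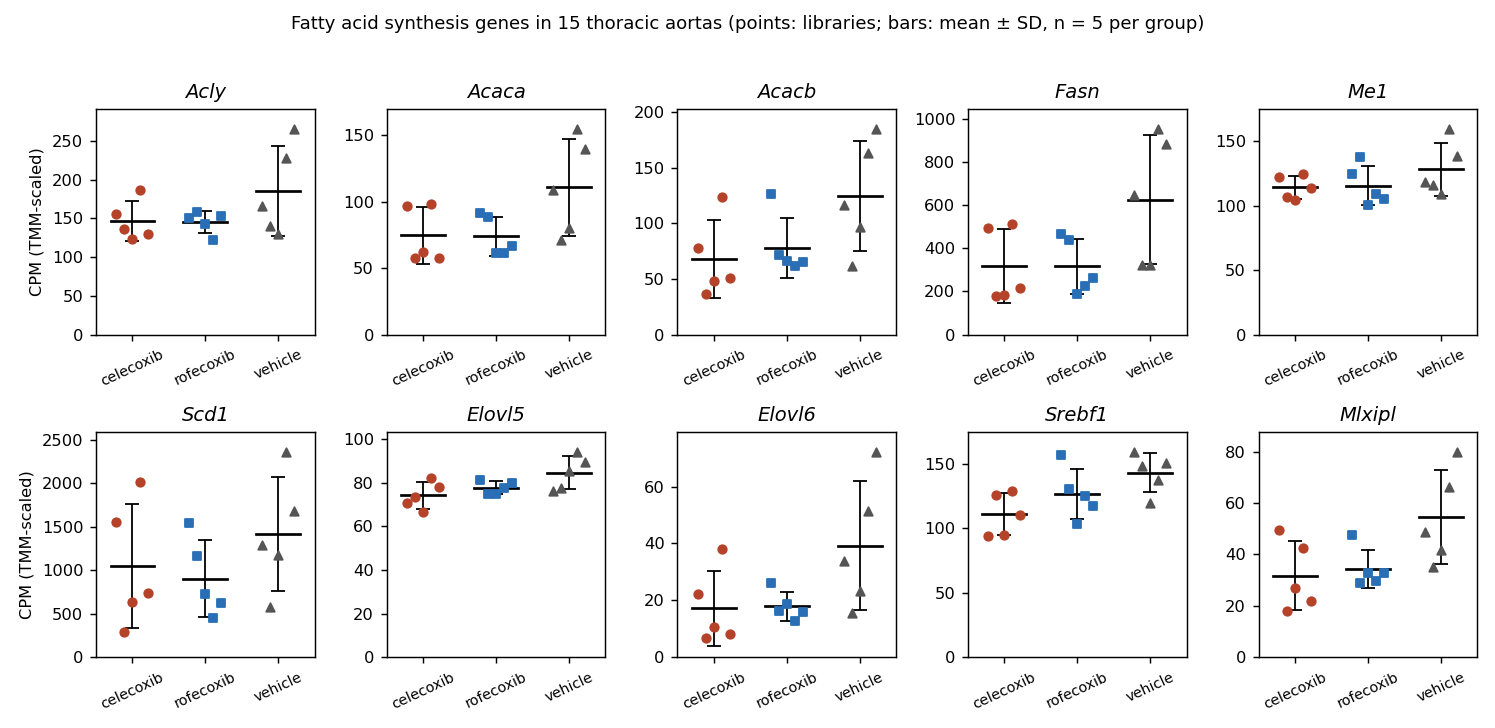
Expression of the 10 genes in CPM, with 1 point per library, a thick line at the mean and a bar of ± SD over 5 libraries for celecoxib, rofecoxib and vehicle. Means of every gene were lower in both treated groups than in vehicle, yet the groups overlapped for every gene, and the highest vehicle points of most genes were vehicle 4 and vehicle 5.

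Of the synthesis enzymes, fatty acid synthase had the largest log2 difference from vehicle. Fasn had 495, 179, 181, 516 and 214 CPM in celecoxib 1 to 5, 465, 441, 189, 228 and 263 CPM in rofecoxib 1 to 5, and 646, 322, 321, 953 and 887 CPM in vehicle 1 to 5. In each treated group 3 of 5 libraries lay below the lowest vehicle library and all 5 below the vehicle median. Celecoxib 1, celecoxib 4, rofecoxib 1 and rofecoxib 2 reached into the vehicle range. The mean was 317 ± 173 CPM with celecoxib, 317 ± 127 with rofecoxib and 626 ± 300 with vehicle (SD, n = 5 each). The ratio to vehicle was 0.507-fold with celecoxib, a log2 fold change of -0.98 ± 0.42 (SE), and the edgeR adjusted p was 0.359. With rofecoxib it was also 0.507-fold, with an edgeR adjusted p of 0.913. Fasn (ENSMUSG00000025153) lies on chromosome 11 of mm9 from 120667052 to 120685694.

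The acetyl-CoA carboxylases make malonyl-CoA, Acaca for synthesis in the cytosol and Acacb at the mitochondrial surface, where malonyl-CoA restrains fatty acid import. Acacb had 78.1, 36.2, 48.1, 124 and 51.0 CPM in celecoxib 1 to 5, 126, 71.3, 65.8, 61.6 and 65.0 CPM in rofecoxib 1 to 5, and 116, 62.0, 96.4, 163 and 184 CPM in vehicle 1 to 5. Celecoxib 4 and rofecoxib 1 lay above the vehicle median, while the remaining treated libraries lay below it. Its log2 fold change was -0.88 ± 0.35 (SE) with celecoxib and -0.68 ± 0.35 with rofecoxib, with edgeR adjusted p of 0.339 and 0.990. Acaca had 96.9, 57.9, 61.8, 98.6 and 58.0 CPM in celecoxib 1 to 5, 91.4, 88.5, 61.5, 61.6 and 67.1 CPM in rofecoxib 1 to 5, and 109, 70.8, 80.3, 155 and 140 CPM in vehicle 1 to 5. All 10 treated libraries were below the vehicle median for Acaca, and the pattern across libraries followed that of Fasn. The log2 fold change of Acaca was -0.57 ± 0.23 with celecoxib and -0.58 ± 0.23 with rofecoxib. Acaca overlaps Tada2a, which averaged 20.9 CPM, and some reads could belong to either gene, since the use of strand in counting is not given in the sources used here.

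ATP citrate lyase, Acly, and malic enzyme, Me1, supply acetyl-CoA and NADPH. Acly averaged 146 ± 25.5 CPM with celecoxib, 145 ± 14.2 with rofecoxib and 185 ± 58.4 with vehicle (SD, n = 5 each). Its vehicle mean was carried by vehicle 4 at 227 CPM and vehicle 5 at 265 CPM, while the other vehicle libraries held 129 to 165 CPM. Without vehicle 5 the log2 fold change of Acly was -0.18 with celecoxib and -0.19 with rofecoxib, in place of -0.34 and -0.35. Me1 averaged 114 ± 9.13 CPM with celecoxib, 116 ± 15.3 with rofecoxib and 128 ± 20.5 with vehicle, log2 fold changes of -0.17 and -0.15. Without vehicle 4 these were -0.07 and -0.06, and without rofecoxib 3 the rofecoxib value was -0.10.

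Scd1 varied widely between animals. It had 1562, 296, 632, 2017 and 743 CPM in celecoxib 1 to 5, 1547, 1164, 731, 456 and 624 CPM in rofecoxib 1 to 5, and 1296, 584, 1180, 2361 and 1681 CPM in vehicle 1 to 5. Highest and lowest celecoxib libraries differed 6.82-fold, and the vehicle libraries 4.04-fold. The log2 fold change was -0.44 ± 0.49 (SE) with celecoxib and -0.65 ± 0.49 with rofecoxib, within the spread between animals. With celecoxib it ranged from -0.79 without celecoxib 4 to -0.16 without vehicle 4, with -0.19 without celecoxib 2 and -0.29 without celecoxib 3. With rofecoxib it was -0.38 without vehicle 4. The 95% interval of the celecoxib ratio ran from 0.356-fold to 1.54-fold, which holds both a fall and a gain.

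Of the elongases, Elovl6 varied widely and Elovl5 little. Elovl6, which extends palmitate to stearate, had 22.3, 6.63, 10.6, 38.2 and 8.13 CPM in celecoxib 1 to 5, 26.1, 16.1, 18.8, 12.8 and 15.8 CPM in rofecoxib 1 to 5, and 33.7, 15.7, 23.4, 51.5 and 72.1 CPM in vehicle 1 to 5. All 5 rofecoxib libraries and 4 of 5 celecoxib libraries lay below the vehicle median. Its ratio to vehicle was the lowest of the 10 genes, 0.438-fold with celecoxib and 0.457-fold with rofecoxib, with log2 fold changes of -1.19 ± 0.49 and -1.13 ± 0.48 (SE). By edgeR the adjusted p was 0.347 with celecoxib and 0.913 with rofecoxib. Elovl5, which extends polyunsaturated fatty acids, averaged 74.1 ± 6.12 CPM with celecoxib, 77.6 ± 2.995 with rofecoxib and 84.5 ± 7.66 with vehicle (SD, n = 5 each). The coefficient of variation among vehicle libraries was 9.06% for Elovl5, the smallest of the 10, and 57.8% for Elovl6, the largest. The small spread of Elovl5 gave a log2 fold change of -0.19 ± 0.07 with celecoxib an unadjusted p of 0.0133 and an edgeR adjusted p of 0.300. With rofecoxib it was -0.12 ± 0.07, and -0.08 without vehicle 4.

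Of the transcription factors, Srebf1, which encodes SREBP-1, had 94.5, 126, 95.3, 129 and 111 CPM in celecoxib 1 to 5, 157, 131, 103, 125 and 118 CPM in rofecoxib 1 to 5, and 159, 149, 120, 137 and 150 CPM in vehicle 1 to 5. Every celecoxib library lay below the vehicle median, and rofecoxib 1 lay close to the top of the vehicle range. Srebf1 had the smallest p of the 10 with celecoxib, with a log2 fold change of -0.37 ± 0.12 (SE), an unadjusted p of 0.00719 and an edgeR adjusted p of 0.283. With rofecoxib the log2 fold change was -0.18 ± 0.12 (unadjusted p = 0.153), and -0.10 without rofecoxib 3. Its row overlaps that of Rai1, which averaged 70.8 CPM, so the same doubt about strand holds as for Acaca.

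Mlxipl, which encodes the glucose-responsive factor ChREBP, had 49.4, 18.2, 27.1, 42.5 and 21.8 CPM in celecoxib 1 to 5, 47.4, 29.1, 32.7, 29.8 and 32.8 CPM in rofecoxib 1 to 5, and 48.8, 35.2, 41.9, 66.1 and 79.8 CPM in vehicle 1 to 5. Of the rofecoxib libraries, 4 of 5 lay below the lowest vehicle library, the most for any of the 10 genes in either comparison. The log2 fold change was -0.77 ± 0.28 (SE) with celecoxib and -0.66 ± 0.28 with rofecoxib, with edgeR adjusted p of 0.310 and 0.913.

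Set directly against each other, celecoxib and rofecoxib aortas showed no difference that passed the threshold in any of the 10 genes. The contrast compares 30 mg/kg of celecoxib with 10 mg/kg of rofecoxib. By edgeR 0 of the 10 were called, where 0% of all genes were, with a median log2 fold change of -0.04 and 7 of 10 signs negative. The intervals were wide for most genes: the 95% interval of the celecoxib over rofecoxib ratio ran from 0.541-fold to 1.85-fold for Fasn and from 0.466-fold to 1.97-fold for Elovl6. For Elovl5 it was narrow, from 0.865-fold to 1.05-fold. Srebf1 had the smallest p, with a ratio of 0.877-fold (95% interval 0.738-fold to 1.04-fold, edgeR adjusted p = 0.744). The sign of this contrast turned under another setting or with a library left out for Fasn, Acaca, Acacb, Acly, Me1, Scd1, Elovl6 and Mlxipl.

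The spread between animals followed the same libraries from gene to gene. Vehicle 4 held the highest level of 5 genes, vehicle 5 of 4 and vehicle 1 of the remaining gene, Srebf1. Vehicle 5 was among the 3 highest libraries for all 10 genes and vehicle 4 for 9. Celecoxib 2 held the lowest level of 6 genes. Across the 15 libraries, 39 of 45 pairs of the 10 genes had a Pearson correlation of log2 CPM that passed a two-sided permutation test after Benjamini-Hochberg adjustment, with a median r of 0.79. By Spearman's rho 35 of 45 passed. How many pairs of other genes would pass is not given here, so these counts are not read as particular to the 10 genes. The closest pair was Acaca and Fasn, with r = 0.98 and Spearman's rho = 0.97 (permutation adjusted p = 4.5e-05 and 9e-05, n = 15), and r = 0.98 without the 2 libraries farthest from the median of Acaca. Acacb and Elovl6 followed at r = 0.97 and rho = 0.98, with r = 0.95 without the 2 farthest libraries. On deviations from group means, r was 0.98 for Acaca with Fasn and 0.96 for Acacb with Elovl6, so both relations held within the groups. Fewer pairs passed for Srebf1 and, by rho, for Elovl5. For Srebf1 3 of 9 pairs passed by Pearson's r and 4 by rho, and its r ranged from 0.27 with Scd1 to 0.58 with Fasn. The 3 that passed by r were weaker on deviations from group means. There r was 0.39 with Fasn in place of 0.58, 0.30 with Acacb in place of 0.56 and 0.28 with Elovl5 in place of 0.57. The permutation test shuffled all 15 libraries without regard to group. For Elovl5 9 of 9 passed by r but 3 by rho. Its r with Acly, Acaca, Fasn and Me1 was 0.62 to 0.67, and 0.17 to 0.31 without the 2 farthest libraries.

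**Figure D2:**
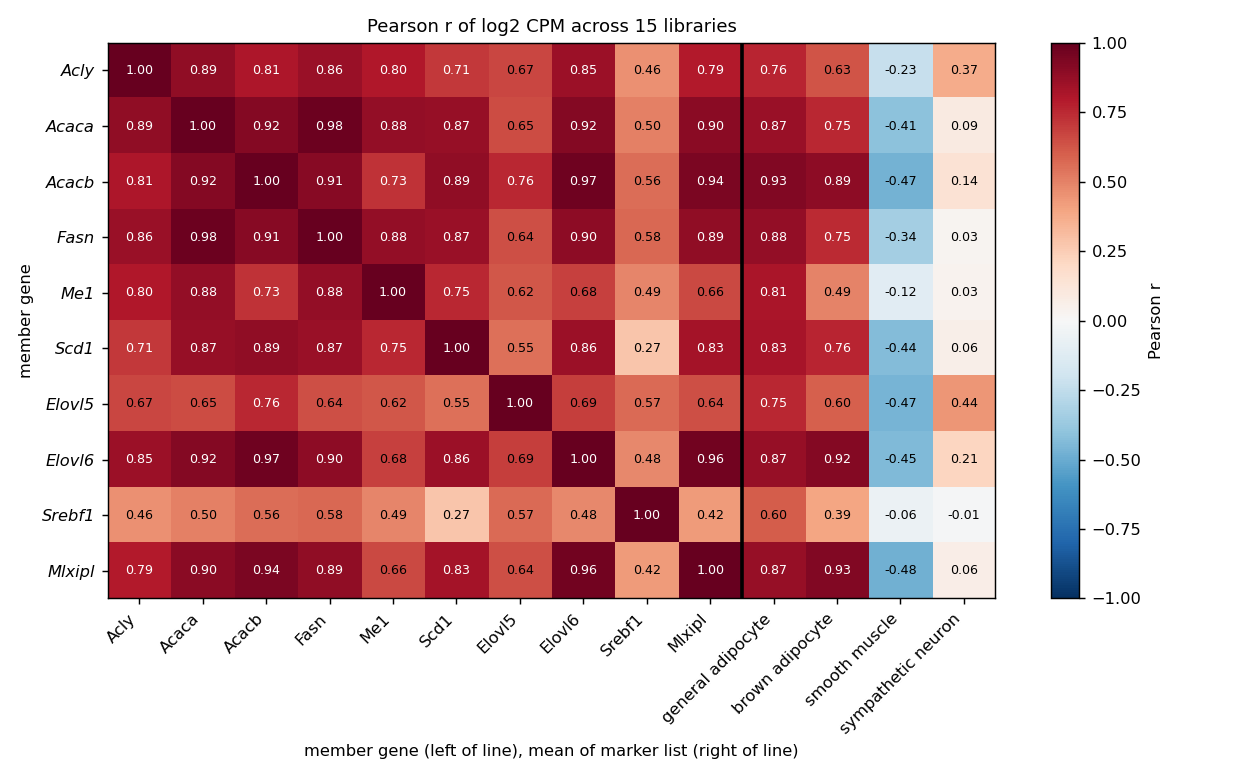
Pearson r of log2 CPM across 15 libraries, on a colour scale that runs between -1 and 1, for each of the 10 genes in rows against the other genes and, right of the line, against the mean of each of 4 marker lists. Most of the genes form a block of high r, led by Acaca with Fasn at 0.98, while the row of Srebf1 is paler, and the adipocyte columns are high where the smooth muscle column is below 0.

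Since the 10 genes moved together between libraries, their proximal promoters were searched for motifs bound by regulators of the pathway or by its common partners. RefSeq promoter windows on GRCm38.p6, from 250 bases before to 50 after a start, matched 9 of the 10 genes by symbol, with 13 windows in all. Exact matches on both strands were counted for TCACCCCA (the core of a sterol response element), CACGTG (an E-box), CCAAT (the NF-Y box) and GGGCGG (the GC box of the Sp factors). CCAAT was found in 8 of 13 windows, beside 37.4% of 32851 windows in the table. GGGCGG was found in 5 of 13, beside 35.7%, CACGTG in 2 of 13, beside 7.15%, and TCACCCCA in 0 of 13, beside 1.56%. A match describes letters only, and no match says nothing of the factor. The 250 bases before the start of Fasn, Acly and Elovl5 are shown as examples, picked for different mixes of these motifs and different ratios to vehicle. Picked this way, they cannot tell whether motifs and ratios are related. Capitals mark the matches, read 5′ to 3′ on the strand of the gene. Fasn is on the minus strand at chr11:120824548-120824797, Acly on the minus strand at chr11:100528001-100528250, and Elovl5 on the plus strand at chr9:77917115-77917364.
Fasn: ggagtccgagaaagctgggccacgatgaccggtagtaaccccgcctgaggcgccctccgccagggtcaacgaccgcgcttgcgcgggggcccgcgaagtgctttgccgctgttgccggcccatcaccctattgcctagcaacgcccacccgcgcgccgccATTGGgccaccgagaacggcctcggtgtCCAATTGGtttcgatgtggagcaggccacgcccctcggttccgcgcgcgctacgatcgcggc
Acly: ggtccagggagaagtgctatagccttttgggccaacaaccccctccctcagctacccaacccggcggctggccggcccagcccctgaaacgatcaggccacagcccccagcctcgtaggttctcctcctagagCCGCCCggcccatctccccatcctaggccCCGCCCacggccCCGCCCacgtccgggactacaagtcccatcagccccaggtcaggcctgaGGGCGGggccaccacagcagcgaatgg
Elovl5: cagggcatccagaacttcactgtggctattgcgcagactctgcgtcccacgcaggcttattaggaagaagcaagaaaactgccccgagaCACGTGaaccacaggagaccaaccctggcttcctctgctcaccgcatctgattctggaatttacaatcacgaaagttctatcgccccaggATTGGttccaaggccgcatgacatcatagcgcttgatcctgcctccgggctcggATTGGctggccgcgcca
Fasn holds 3 CCAAT matches, 2 of them overlapping on opposite strands. Acly holds 4 GGGCGG matches, 3 of them read as the reverse complement. Its full window also holds 1 CCAAT match, 37 bases past the start and so outside the bases shown. Elovl5 holds 1 CACGTG and 2 CCAAT matches. The ratios to vehicle with celecoxib were 0.507-fold for Fasn, 0.789-fold for Acly and 0.878-fold for Elovl5, and with rofecoxib 0.507-fold, 0.784-fold and 0.919-fold. The windows of Elovl6 and Acaca held no match to any of these motifs. Their ratios were 0.438-fold and 0.673-fold with celecoxib, and 0.457-fold and 0.667-fold with rofecoxib. A relation between motifs and ratios was not tested.

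Fat cell markers moved with the 10 genes. The 10 general adipocyte markers, among them Adipoq, Plin1, Fabp4, Lipe and Lpl, share 0 genes with the set. Their summed level ran from 930 to 2331 CPM with celecoxib (median 1489), from 1380 to 3309 with rofecoxib (median 1770) and from 1779 to 4388 with vehicle (median 2305). Vehicle 4 at 4388 CPM and vehicle 5 at 4115 CPM were the highest of the 15 libraries, and celecoxib 2 at 930 CPM was the lowest. Of these markers 9 of 10 had a negative log2 fold change with celecoxib (median -0.90), 8 of them at an unadjusted p under 0.05, where 7.18% of all genes were. With rofecoxib 10 of 10 were negative (median -0.53), and 0 reached that p, where 3.71% of all genes did. None was called, and none was at 0 in any group. The 8 brown adipocyte markers summed to 225 to 685 CPM with celecoxib, 363 to 622 with rofecoxib and 617 to 1752 with vehicle. Of these 7 of 8 were negative against vehicle for each compound, with a median log2 fold change of -1.26 with celecoxib and -1.04 with rofecoxib, and 0 were called. At an unadjusted p under 0.05, 7 of 8 were lower with celecoxib and 5 of 8 with rofecoxib, beside the same 7.18% and 3.71% of all genes. Ucp1, the uncoupling protein that defines brown fat, averaged 101 ± 94.6 CPM with celecoxib, 134 ± 63.9 with rofecoxib and 453 ± 322 with vehicle (SD, n = 5 each). Its ratio to vehicle was the lowest of the 8. Prdm16, the brown marker that was not negative, averaged 159 ± 27.5, 161 ± 16.3 and 158 ± 49.0 CPM in the same order. Of the general markers, Lep was the exception with celecoxib, at a log2 fold change of 0.11. In a homogenised vessel, fewer fat cells and less RNA per fat cell cannot be told apart.

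Across the 15 libraries the mean log2 CPM of the general adipocyte markers correlated with each of the 10 genes. Of 40 relations with 4 marker lists, 18 passed by Pearson's r after adjustment: 10 of 10 for general adipocyte, 8 of 10 for brown adipocyte, 0 for smooth muscle and 0 for sympathetic neuron. By Spearman's rho the counts were 10, 7, 5 and 0, the smooth muscle relations being negative. The share of all genes that would pass against the same lists is not given here. These counts are therefore not read as particular to the 10 genes. Lists for endothelium, Schwann cells, macrophages and lymphocytes were not correlated with the genes. Median log2 fold changes against vehicle, with celecoxib and rofecoxib in turn, were -0.21 and -0.20 for endothelium and -0.05 and -0.04 for macrophages. For Schwann cells they were 0.15 and -0.05. Of 6 lymphocyte markers only 1 was tested. By Pearson's r Acacb was closest to the general markers, with r = 0.93 and rho = 0.92 (permutation adjusted p = 6.7e-05 and 0.0002, n = 15). Fasn had r = 0.88 and rho = 0.95 (permutation adjusted p = 6.7e-05 and 0.0002), the highest rho. Srebf1 had the lowest r, with r = 0.60 and rho = 0.65 (permutation adjusted p = 0.0412 and 0.0269). Elovl5 had the lowest rho, with r = 0.75 and rho = 0.60 (permutation adjusted p = 0.0030 and 0.0392). Without vehicle 4 and vehicle 5, the libraries farthest from the median marker level, r was 0.88 for Acacb, 0.78 for Fasn, 0.56 for Srebf1 and 0.52 for Elovl5. Deviations from group means gave 0.91, 0.86, 0.40 and 0.64. The smooth muscle values moved with 2 libraries: without rofecoxib 2 and vehicle 3, the farthest from the median of that list, r was -0.76 for Fasn in place of -0.34, -0.80 for Acaca in place of -0.41, -0.68 for Acly in place of -0.23 and -0.76 for Me1 in place of -0.12. Brown markers were closest to Mlxipl at r = 0.93 and Elovl6 at r = 0.92, and did not pass for Me1 (r = 0.49) or Srebf1 (r = 0.39). On deviations from group means the brown list gave 0.88 for Mlxipl, 0.87 for Elovl6 and 0.79 for Scd1, in place of 0.76 for Scd1. It gave 0.62 for Fasn in place of 0.75, 0.51 for Acly in place of 0.63 and 0.31 for Elovl5 in place of 0.60. For Srebf1 it was -0.06.

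**Figure D3:**
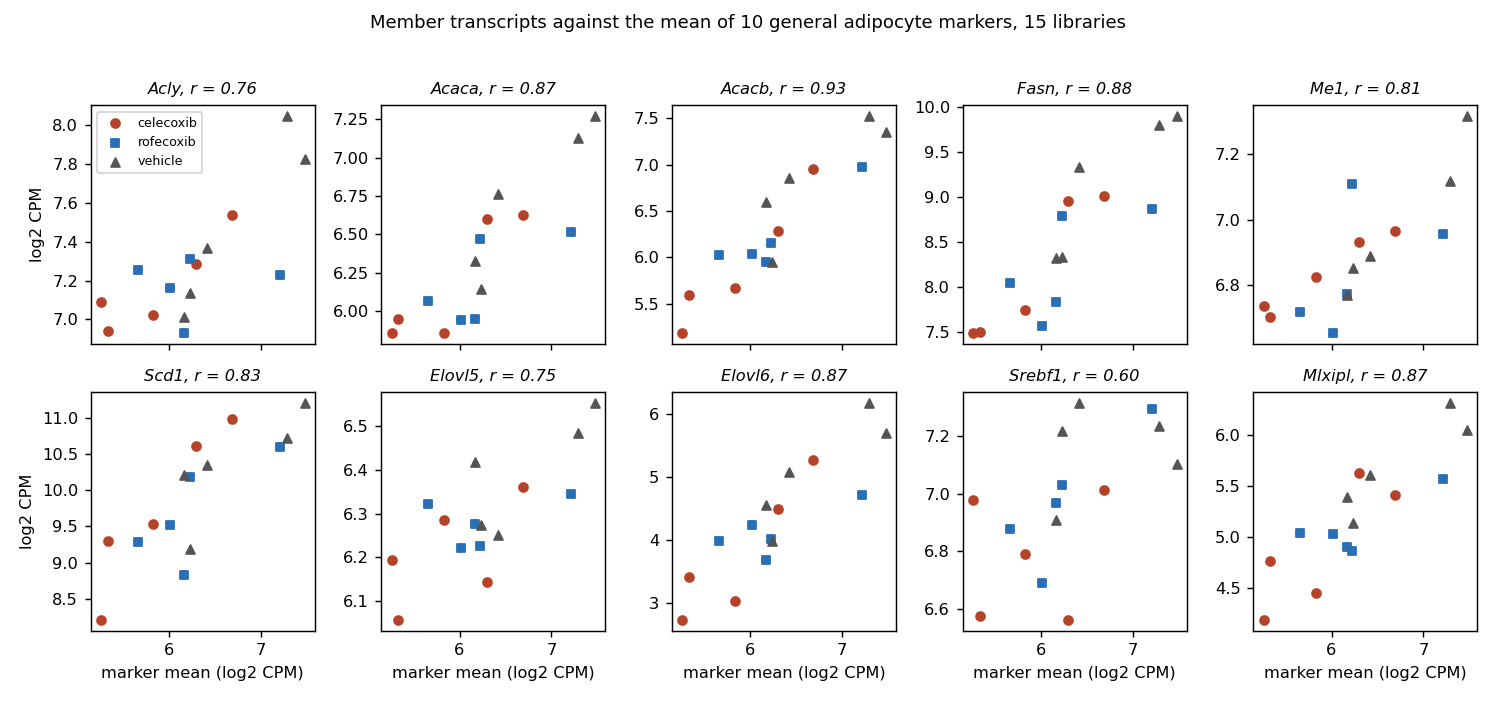
Log2 CPM of each of the 10 genes against the mean log2 CPM of 10 general adipocyte markers, with 1 point per library (circles celecoxib, squares rofecoxib, triangles vehicle) and Pearson's r in each title. By Pearson's r Acacb follows the markers most tightly at 0.93 and Srebf1 most loosely at 0.60, and the right-hand triangles are vehicle 4 and vehicle 5.

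With the general adipocyte mean as a covariate in the edgeR fit, the median log2 fold change of the 10 genes was -0.13 with celecoxib and -0.19 with rofecoxib, in place of -0.50 and -0.62. The number lower at an unadjusted p under 0.05 was 0 for each compound, where in the same fit 3.64% of all genes were with celecoxib and 2.25% with rofecoxib, and 8 of 10 signs were negative with celecoxib and 10 of 10 with rofecoxib. Fasn then had a log2 fold change of -0.17 ± 0.27 (SE) with celecoxib and -0.43 ± 0.24 with rofecoxib. Scd1 had 0.37 ± 0.32 and Me1 0.04 ± 0.09 with celecoxib, on the other side of 0 from the fit without the covariate. Srebf1 kept most of its difference, -0.26 ± 0.13 in place of -0.37 ± 0.12 with celecoxib (unadjusted p = 0.0696). For rofecoxib the smallest unadjusted p was 0.0592, that of Acaca at -0.28 ± 0.14. The covariate was measured in the same libraries and itself differed between the groups.

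**Figure D4:**
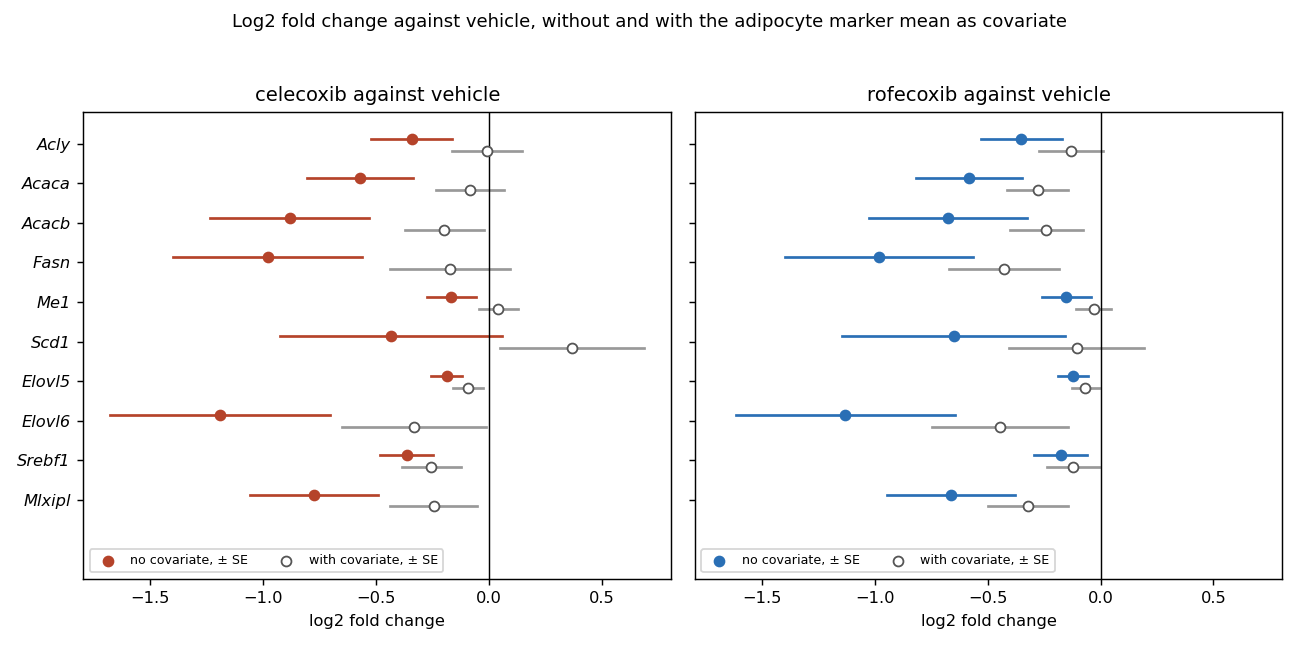
Log2 fold change against vehicle of the 10 genes with celecoxib (left panel) and rofecoxib (right panel), with bars of ± SE. Filled points are the fit without a covariate and open points the fit with the general adipocyte mean, and every open point lies nearer to 0 or past it, while Srebf1 moves least with celecoxib in proportion to its size.

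Of 38 other genes of the pathway, 37 were tested, and Elovl2 was too low to be tested. Their median log2 fold change was -0.07 with celecoxib, with 27 of 37 negative, and 0 called by edgeR. At an unadjusted p under 0.05, 10 were lower and 1 higher, where 7.18% of all genes were lower and 810 of 15134 were higher. With rofecoxib the median was -0.05, with 26 of 37 negative and 0 called. At that p 5 were lower and 0 higher, where 3.71% of all genes were lower and 222 of 15134 were higher. Between the compounds the median was -0.03, with 0 called. At that p 2 were lower and 0 higher, where 2.91% of all genes were lower and 613 of 15134 were higher. The medians of the 10 genes stood at -0.50 and -0.62, and no test of that difference was made.

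Mitochondrial fatty acid synthesis, the separate route that makes the precursor of lipoic acid, had 4 of 4 genes negative against vehicle for each compound. Ndufab1, its acyl carrier protein and also a subunit of respiratory complex I, had 52.7, 42.1, 53.0, 61.2 and 46.1 CPM in celecoxib 1 to 5, 58.4, 48.8, 52.5, 50.4 and 49.6 CPM in rofecoxib 1 to 5, and 62.5, 54.3, 62.2, 72.1 and 85.2 CPM in vehicle 1 to 5. Its groups overlapped, with 4 of 5 libraries of each treated group below the lowest vehicle library. The log2 fold change was -0.40 ± 0.12 (SE) with celecoxib (unadjusted p = 0.00374) and -0.37 ± 0.12 with rofecoxib (unadjusted p = 0.00580). Mcat, which loads malonyl groups in mitochondria, averaged 9.25 ± 0.669 CPM with celecoxib, 10.8 ± 0.648 with rofecoxib and 10.98 ± 1.06 with vehicle. Among the 37 genes it had the smallest p between the compounds, a log2 fold change of -0.22 ± 0.08 (unadjusted p = 0.0132, edgeR adjusted p = 0.649).

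Elovl3, an elongase of brown fat, had 1.02, 0.0322, 0.886, 1.31 and 0.389 CPM in celecoxib 1 to 5, 1.16, 0.601, 2.02, 1.77 and 1.45 CPM in rofecoxib 1 to 5, and 1.99, 1.38, 4.94, 3.71 and 19.7 CPM in vehicle 1 to 5. All 5 celecoxib libraries lay below the lowest vehicle library, as for 0.74% of all genes, and rofecoxib libraries overlapped vehicle. The log2 fold change was -3.12 ± 0.79 (SE) with celecoxib, with an edgeR adjusted p of 0.269 and a DESeq2 adjusted p of 0.00648, and -2.17 ± 0.75 with rofecoxib. Without vehicle 5 the edgeR log2 fold change was -2.04 with celecoxib and -1.10 with rofecoxib. DESeq2 was not run without that library. The 12 tested genes of elongation and desaturation had a median of -0.0068 with celecoxib and -0.04 with rofecoxib.

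Among 16 other regulators, 12 had a negative sign with celecoxib and 10 with rofecoxib. Nr1h3, the liver X receptor alpha that drives Srebf1, averaged 14.2 ± 2.65 CPM with celecoxib, 15.7 ± 2.39 with rofecoxib and 20.9 ± 4.98 with vehicle (SD, n = 5 each). The log2 fold change of Nr1h3 was -0.56 ± 0.17 (SE) with celecoxib and -0.41 ± 0.17 with rofecoxib, with edgeR adjusted p of 0.275 and 0.896. Mlx, the partner that ChREBP needs to bind DNA, averaged 23.9 ± 1.29 CPM with celecoxib, 26.7 ± 1.28 with rofecoxib and 28.1 ± 2.92 with vehicle. Its log2 fold change was -0.23 ± 0.07 with celecoxib (unadjusted p = 0.00418) and -0.15 ± 0.07 between celecoxib and rofecoxib (unadjusted p = 0.0382). Prkaa2, a catalytic subunit of the kinase AMPK that inhibits acetyl-CoA carboxylase, averaged 46.5 ± 2.68 CPM with celecoxib, 50.8 ± 4.31 with rofecoxib and 47.4 ± 3.98 with vehicle. The 5 genes that supply acetyl-CoA, citrate or NADPH were all negative against vehicle, with medians of -0.23 with celecoxib and -0.17 with rofecoxib.

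For each of the 10 genes, the 3 genes most alike over the 15 libraries were sought among 11902 by Pearson's r of log2 CPM, as a description. All values share library and scaling, and genes are not independent replicates. Acacb was closest to Lpl (r = 0.97), Sh2b2 and Lipe, where Lpl and Lipe are the lipoprotein lipase and hormone-sensitive lipase counted here as adipocyte markers. Elovl6 was closest to Cyc1 (r = 0.98), Cox5a and Chchd10, and Mlxipl to Pdhb (r = 0.98), Chchd10 and Dlst. Acaca was closest to Chchd2 (r = 0.95), Pdha1 and Brp44l. For Fasn the list was Glrx5 (r = 0.94), Aacs and Tkt, and for Acly it was Aldoa (r = 0.94), Pgd and Eno1. Aacs, which activates acetoacetate for lipid synthesis, also led the list of Me1 (r = 0.90, then Klhl2 and Pcx) and was in that of Scd1 after Aldh1a7 (r = 0.92) and Enpp2. Elovl5 was closest to Pus1 (r = 0.90), Slc15a4 and Mrrf. Srebf1 had the lowest leading value, Prpf19 at r = 0.87, followed by Psmg1 and Phlda3.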

How the data were processed

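The authors deposited whole-number counts, 1 row a gene, with mm9 coordinates. The submitters' processing notes name STAR 2.5.2a and CASAVA 1.8.2. Neither counting tool nor strand setting is given in the sources used here. The counts the authors deposited summed to nearly the same total in each library, a spread of 0.0971%, so the original depth is unknown. Library construction took several days per the labels' protocols, with no day given per library, so no such term could be fitted.

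In R 4.3.3, edgeR 4.0.16 kept 15134 genes by filterByExpr. One quasi-likelihood fit (TMM factors 0.953 to 1.04, robust) covered 15 libraries, tested 3 contrasts and adjusted over all genes by Benjamini-Hochberg, with a threshold of 0.05. CPM use the scaled sizes, and log2 CPM a prior count of 2. Levels per kb used GENCODE exon lengths of GRCm38. Correlations used 100000 resamples, whose smallest possible p is 1e-05. The fit was tested on simulated data. To look for duplicated libraries, a chi-square per gene was taken between libraries of a group, and the smallest was 14.7. It treats the deposited values as raw counts. With the original depth unknown, it does not measure sampling noise.

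Alternatives were DESeq2 1.42.0, limma-voom (limma 3.58.1), other scalings, other filters, a replicate block, the compared groups alone, an adipocyte covariate, another prior count and leaving out each library. The 10 genes and the lists were chosen with earlier results of these data known. Pathway genes were named by the 3 smallest p per comparison, and like genes by the 3 highest r.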

Additional observations from a re-analysis of the deposited data

Results flagged for a closer look

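In 4 of 48 groups of 5 libraries, over 16 genes, 1 library stood far from the other 4. Chance marks about 1 in 20 groups where values are normal and groups independent. The genes moved together between libraries, and the flags of Acacb, Mlxipl and Nr1h3 fell on the same library. The count of flags is therefore not to be set against that rate. Acacb had 126 CPM in rofecoxib 1, where the other rofecoxib libraries held 61.6 to 71.3 CPM. Mlxipl had 47.4 CPM in the same library, where the others held 29.1 to 32.8 CPM. Nr1h3 had 19.9 CPM there, where the others held 14.3 to 15.0 CPM. Rofecoxib 1 also had the highest summed general adipocyte markers of its group, 3309 CPM beside 1380 to 1914 CPM, and their part in these values was not tested. Without rofecoxib 1 the log2 fold change against vehicle with rofecoxib was -0.92 for Acacb, -0.81 for Mlxipl and -0.52 for Nr1h3. Elovl3 had 19.7 CPM in vehicle 5, where the other vehicle libraries held 1.38 to 4.94 CPM.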

How the results depend on the processing

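Of 1385 values under alternatives, 1322 were counted as unchanged, 55 turned sign, and none of the turned values passed the threshold. For the fold change of a gene, unchanged meant the same sign and the same side of the threshold. For a count it meant a similar size. A median of the 10 genes counted as unchanged if it moved by less than 0.419, the SD of their mean log2 CPM within groups. Turns of sign in such medians, as between the compounds without celecoxib 3, are thus among the 1322. The 10 genes had 0 calls under every alternative run. DESeq2 called 126 genes between celecoxib and vehicle and 19 between celecoxib and rofecoxib, none of them among the 10. With a library left out, edgeR called 0 to 8 genes between celecoxib and vehicle (8 without celecoxib 4, 2 without vehicle 2, 1 without celecoxib 5) and 0 to 1 between celecoxib and rofecoxib. The median of the 10 genes ranged from -0.73 to -0.39 with celecoxib and from -0.74 to -0.40 with rofecoxib, the smallest sizes without vehicle 4, and from -0.19 to 0.04 between the compounds. The adipocyte covariate moved the rofecoxib median to -0.19. It also brought the celecoxib median much nearer to 0, as given above. That shift was under 0.419, so it is among the 1322. The limit is not much smaller than the medians against vehicle themselves, so a median counted as unchanged may still have shifted much. Relations with marker lists passing by Pearson's r numbered 15 to 18 with a library left out.

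Signs turned mainly in celecoxib against rofecoxib. There the main values of the genes that turned ran from -0.21 for Acacb to 0.22 for Scd1, so not all lay near 0. Fasn was 0.0020 with RLE scaling, 0.0035 without a filter, 0.0050 with the CPM filter and 0.0020 by DESeq2. Without scaling Acly was -0.011 and Acaca -0.0080, and by limma-voom -0.0016 and -0.010. With the covariate Fasn was 0.25, Acacb 0.042, Me1 0.072, Elovl6 0.11, Mlxipl 0.075 and Ndufab1 0.063, and against vehicle Me1 was 0.041 and Scd1 0.37 with celecoxib and Mcat 0.040 with rofecoxib. With a library left out, celecoxib against rofecoxib ranged from -0.089 to 0.061 for Acly, -0.10 to 0.10 for Acaca, -0.54 to 0.033 for Acacb, -0.24 to 0.18 for Fasn, -0.059 to 0.058 for Me1, -0.15 to 0.50 for Scd1, -0.58 to 0.14 for Elovl6, -0.33 to 0.032 for Mlxipl and -0.095 to 0.034 for Ndufab1. Against vehicle Prkaa2 ranged from -0.075 to 0.017 with celecoxib and Mcat from -0.052 to 0.031 with rofecoxib. The cause was not tested.

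Deviations of same-numbered libraries correlated at -0.72 to 0.78, so the numbers were not taken as pairs. With replicate number as a block, 0 genes were called in each comparison, and the medians of the 10 genes were -0.57, -0.52 and -0.10. Between the compounds Acly was then -0.0099, Acaca -0.030 and Scd1 -0.077.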
